A study of Homo sapiens with 24 samples.

Results

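The genes described here were 10 heat shock genes, HSPA6, HSPA1A, HSPA1B, HSPA8, HSPH1, DNAJB1, HSP90AA1, HSPB1, BAG3 and HSF1, of the 58884 genes listed in each of a pair of RNA-seq tables. HSPA6 was chosen by its measured values, a higher level with both SETD2 constructs than in the libraries labelled KO of the second table. The other 9 were added by name, as well-studied genes of the same response. Each gene was found by its symbol, and all 10 were listed in both tables.

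SETD2 is the enzyme that places trimethylation on lysine 36 of histone H3, and the RNA-seq of the study asked how the amount and form of SETD2 affect the transcriptome. All libraries came from HEK293T, an established line derived from human embryonic kidney cells that carries the SV40 large T antigen. Of the 24 samples in the series, 10 RNA libraries were analysed, and the 14 ChIP samples were not analysed here. The first table, titled batch 1, held 2 libraries of WT cells and 2 labelled KO, and the second, titled batch 2, held 2 libraries labelled KO, 2 of SETD2 FL and 2 of SETD2 C. KO cells carried a disruption of SETD2 on each of its 2 alleles, and the WT and KO libraries were titled untreated. SETD2 FL and SETD2 C were the same KO cells after transfection, with Fugene HD, of a tagged construct driven by the CMV promoter, and their RNA was taken 72 h later. SETD2 FL encoded the full-length protein and SETD2 C, called N3 in the labels, residues 1404 to 2564, the C-terminal segment. No library of KO cells transfected with an empty vector was among those analysed here, so the construct and the transfection cannot be told apart in any comparison with KO.

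Heat shock proteins are chaperones, which keep other proteins from misfolding and help them refold after heat or other protein-damaging stress. HSP70 proteins bind exposed hydrophobic stretches in a cycle driven by ATP, J-domain cochaperones deliver clients to them, and HSP110 and BAG proteins release the nucleotide that ends the cycle, while HSP90 finishes the folding of kinases and receptors and small heat shock proteins hold unfolded clients without ATP. The transcription factor HSF1 is held inactive by chaperones in unstressed cells, and on stress it forms trimers that bind heat shock elements, repeats of a short inverted unit, ahead of many of these genes.

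Levels were given as TPM, a share of each library's transcript pool corrected for transcript length, so levels of different genes could be set side by side within a library. TPM keeps no sequencing depth, so the depth behind each value was unknown and no counting interval could be given. The sources used here do not say, for these RNA-seq libraries, whether the 2 of a group came from separate cultures, so p-values measured only the spread between these libraries, which may be technical. Differences were computed on log2(TPM + 0.5) after scaling within each table, and on this scale genes of low TPM show less than their full change. A gene was called when its adjusted p from limma, over all tested genes of the table, was at most 0.05.

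SETD2 itself was read first, as a check of the labels. SETD2 measured 12.6 and 14.8 TPM in WT and 16.2 and 16.3 TPM in the libraries labelled KO of the first table, a log2 difference of 0.11 (SE 0.0791, limma adjusted p = 0.408). The libraries labelled KO thus did not hold less of the transcript, and every direction given below for them rests on the labels. The level sums reads over the whole gene, so it does not check the disrupted stretch. In the second table SETD2 measured 11.99 and 12.15 TPM in the libraries labelled KO, 439 and 422 TPM under SETD2 FL and 1329 and 1264 TPM under SETD2 C. The transfected libraries thus stood far above KO, with no overlap between the 3 groups.

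PAX2, EYA1, LIN28B, NEFM and VIM, taken as marks of the HEK293 lineage, were detected in all 10 libraries, from 0.99 TPM for PAX2 to 926 TPM for VIM. The 11 markers of other cell types summed to between 7.88 and 14.5 TPM a library, and ACTN2, a muscle gene, was the most abundant of them at 4.56 to 10.97 TPM. Their sum was highest in the SETD2 C libraries, at 13.2 and 14.5 TPM against 9.26 and 8.98 TPM in the KO libraries beside them. The erythroid gene ALAS2 was listed at 0 in every library, and PTPRC, CD3E, MYH7 and CDH5 never passed 0.05 TPM. Mitochondrially encoded transcripts took 23.2% and 14.1% of the TPM in WT and 11.99% and 12.4% in KO of the first table. The second table had shares of 7.04% and 6.23% in KO, 10.95% and 7.79% under SETD2 FL, with only 2.93% and 3.37% under SETD2 C. Replicates of a group correlated across genes at r = 0.993 to 0.995 on the log2 scale.

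HSPA6 encodes an inducible HSP70 that most unstressed cells barely express, and it is a single exon at chr1:161524540-161526894 on the plus strand of GRCh38. It stood at 0.17 and 0.20 TPM in the libraries labelled KO of the second table, at 2.31 and 2.36 TPM under SETD2 FL and at 6.14 and 12.01 TPM under SETD2 C. The 3 groups did not overlap, and the SETD2 C libraries differed most from each other. The order KO, SETD2 FL, SETD2 C was among the values that chose the gene, so it is given as a description with no test. In the first table HSPA6 was at 0.29 and 0.38 TPM in WT and at 0.46 and 0.40 TPM in the libraries labelled KO, under the filter of 0.5 TPM in at least 2 libraries, and it was not tested there. The tables came from separate batches, so a gap between a level in the first and a level in the second cannot be told apart from the batch, and none was tested.

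On the log2 scale HSPA6 was higher than KO by 2.06 ± 0.258 (limma SE, 2 libraries a group) with SETD2 FL and by 3.63 ± 0.258 with SETD2 C, and SETD2 C stood above SETD2 FL by 1.57 ± 0.258. This SE came from a spread estimate shared by all groups of the table, so it is not the spread within the groups compared. On this scale the libraries were at -0.565 and -0.496 in KO, 1.544 and 1.523 under SETD2 FL and 2.65 and 3.553 under SETD2 C. The ratio of the mean TPM was 12.6 for SETD2 FL over KO, 49.1 for SETD2 C over KO and 3.89 for SETD2 C over SETD2 FL. With KO libraries at 0.17 and 0.20 TPM the log2 value depended on the pseudocount, and with 0.1 in place of 0.5 it was 3.09 for SETD2 FL and 4.81 for SETD2 C. With a pseudocount of 1 these values were 1.51 and 2.93. The spread within SETD2 C also counted, since the difference from KO was 4.07 without replicate 1 and 3.17 without replicate 2 of SETD2 C. HSPA6 passed the filter only through the transfected libraries, in which it had to be higher. In bulk RNA more HSPA6 transcript in each cell and more cells with HSPA6 transcript cannot be told apart.

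HSPA7, a pseudogene nearly identical to HSPA6, lies at chr1:161606291-161608217, and reads that fit both copies were divided between them by the authors' estimation. It stood at 0.02 and 0.03 TPM in the libraries labelled KO of the second table, at 0.00 and 0.16 TPM under SETD2 FL and at 0.21 and 0.43 TPM under SETD2 C. In the first table it was 0.11 and 0.08 in WT and 0.08 and 0.04 in the libraries labelled KO. HSPA7 was thus below HSPA6 in all 10 libraries, and a part of either level may belong to the other copy.

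The promoters of 4 of the 10 genes and of HSPB8 are printed to show the letters by which heat shock elements are recognised. They are the 250 bases before the start site, read 5′ to 3′ on the gene's strand, from RefSeq on GRCh38.p14. The windows were chr1:161524290-161524539 on the plus strand for HSPA6, chr6:31827488-31827737 on the plus strand for HSPA1B, chr11:123062137-123062386 on the minus strand for HSPA8, chr19:14518398-14518647 on the minus strand for DNAJB1 and chr12:119178681-119178930 on the plus strand for HSPB8. Capitals mark the motifs TTCNNGAA and GAANNTTC, in which N is any base. Each motif is its own reverse complement, so both strands were covered, and where both kinds share 3 bases they form a run of 3 alternating units, counted separately.
HSPA6: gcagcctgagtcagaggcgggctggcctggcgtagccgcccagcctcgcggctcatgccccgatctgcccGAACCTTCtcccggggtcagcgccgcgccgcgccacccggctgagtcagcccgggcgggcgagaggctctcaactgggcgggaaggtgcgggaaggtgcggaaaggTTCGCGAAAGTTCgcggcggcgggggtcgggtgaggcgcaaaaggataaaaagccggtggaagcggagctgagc
HSPA1B: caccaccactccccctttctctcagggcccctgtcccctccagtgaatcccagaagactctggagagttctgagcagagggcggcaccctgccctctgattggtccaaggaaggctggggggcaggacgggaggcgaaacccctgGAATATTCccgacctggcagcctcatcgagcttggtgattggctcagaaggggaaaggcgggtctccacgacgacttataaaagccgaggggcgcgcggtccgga
HSPA8: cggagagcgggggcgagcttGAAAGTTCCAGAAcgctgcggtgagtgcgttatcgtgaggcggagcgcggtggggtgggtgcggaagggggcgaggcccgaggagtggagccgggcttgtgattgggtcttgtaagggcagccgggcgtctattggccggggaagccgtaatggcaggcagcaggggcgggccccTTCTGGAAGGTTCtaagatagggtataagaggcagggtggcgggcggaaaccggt
DNAJB1: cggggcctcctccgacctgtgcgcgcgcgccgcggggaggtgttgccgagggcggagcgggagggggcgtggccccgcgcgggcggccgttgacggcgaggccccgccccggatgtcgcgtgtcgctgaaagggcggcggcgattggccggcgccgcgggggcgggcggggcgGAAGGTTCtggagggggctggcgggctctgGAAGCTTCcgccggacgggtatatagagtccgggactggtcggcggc
HSPB8: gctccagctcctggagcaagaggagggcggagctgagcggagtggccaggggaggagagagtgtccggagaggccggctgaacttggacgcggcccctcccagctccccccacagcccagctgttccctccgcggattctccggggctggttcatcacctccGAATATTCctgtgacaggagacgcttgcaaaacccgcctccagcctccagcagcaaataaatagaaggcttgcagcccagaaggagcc

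Either motif was present in 13.5% of all 35116 promoter windows, which ran from 250 bases before to 50 after the start, TTCNNGAA in 7.74% and GAANNTTC in 6.77%. A run of 3 alternating units was present in 0.49%. Of the 10 genes, 9 had a window, and 7 of these 9 held a motif, against 20 of 65 windows of other genes of the heat shock network. A run of 3 units was found in 3 of the 9, those of HSPA6, HSPA8 and HSP90AA1, and in 5 of the 65, those of DNAJA1, DNAJB6, CHORDC1, SERPINH1 and HSPD1. The HSPA6 run began 74 bases before the start, with a further motif 180 bases before it. In HSPA8 runs began 230 and 55 bases before the start, and in HSP90AA1 a run began 88 bases before it. HSPA1A, HSPA1B and HSPB1 each held a lone motif, 106, 105 and 182 bases before the start, and DNAJB1 held a pair, 77 and 47 bases before it. The windows of HSPH1 and BAG3 held neither motif, and the HSPH1 window was set on a start site 484 bases away from that of the gene's reference transcript. A match describes the letters of a window and is not a binding site, and no match says only that these letters are not in the window.

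**Figure D1:**
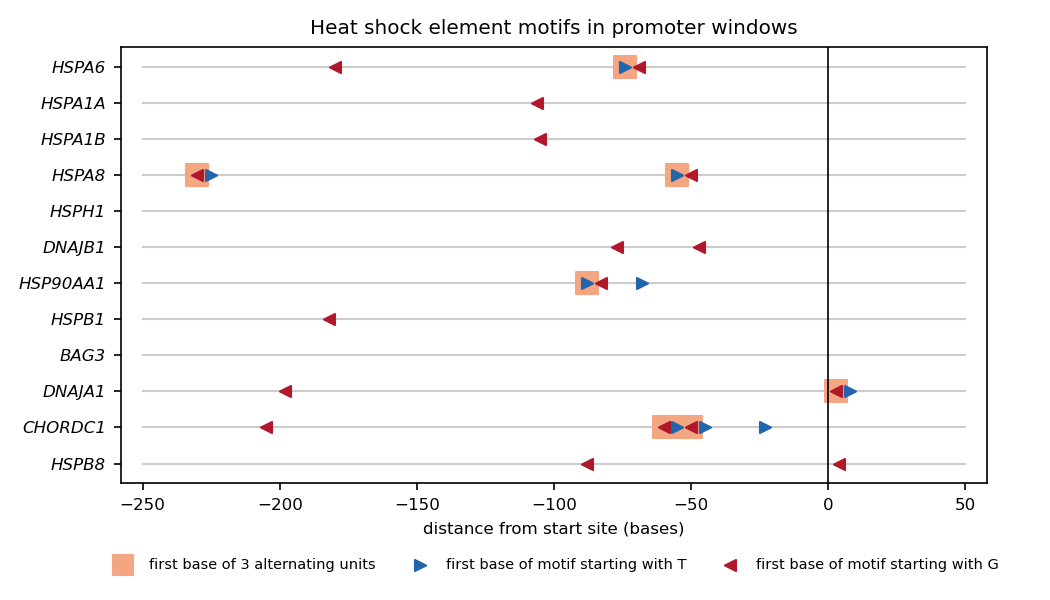
Positions of the motifs in promoter windows of the 9 heat shock genes with a window and of DNAJA1, CHORDC1 and HSPB8, against the distance from the start site in bases. Triangles mark the first base of each motif, with T or G as its first letter, and squares the first base of a run of 3 alternating units.

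HSPA1A and HSPA1B encode the same stress-inducible HSP70 protein from single exons at chr6:31815543-31817946 and chr6:31827738-31830254, and their promoter windows were identical at 277 of 299 aligned bases (92.6%). HSPA1B stood at 352 and 365 TPM in the libraries labelled KO of the second table, at 515 and 545 TPM under SETD2 FL and at 637 and 570.3 TPM under SETD2 C. HSPA1A stood at 3.52 and 4.62 TPM in KO, at 5.86 and 5.20 TPM under SETD2 FL and at 8.28 and 10.7 TPM under SETD2 C. Neither gene overlapped between the groups before scaling, and after it the SETD2 FL and SETD2 C ranges of HSPA1B did overlap. HSPA1A made up between 0.945% and 1.84% of the sum of both genes in all 10 libraries, and since the copies are nearly identical this split is uncertain. The sum was 356 and 369 TPM in KO, 521 and 550.3 TPM under SETD2 FL and 646 and 581 TPM under SETD2 C.

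HSPA8, the constitutive HSP70 that folds proteins in unstressed cells, lies at chr11:123057489-123063230 on the minus strand and has 9 exons in its reference transcript. It stood at 493 and 525 TPM in the libraries labelled KO of the second table, at 585 and 612 TPM under SETD2 FL and at 577 and 568 TPM under SETD2 C. The KO libraries were the lowest before scaling, but after scaling KO was at 510.4 and 549 and SETD2 C at 543 and 531, and these ranges overlapped. HSPH1, an HSP110 that exchanges the nucleotide of HSP70, lies at chr13:31134973-31162388 on the minus strand. It stood at 84.2 and 85.4 TPM in KO, at 96.6 and 107 TPM under SETD2 FL and at 85.3 and 92.6 TPM under SETD2 C. SETD2 FL was the highest group for HSPH1 and did not overlap the others, while KO and SETD2 C overlapped before scaling but not after it, with SETD2 C below KO.

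DNAJB1, the J-domain partner that hands clients to HSP70, lies at chr19:14514769-14560391 on the minus strand. It stood at 39.7 and 38.1 TPM in the libraries labelled KO of the second table, at 53.0 and 55.6 TPM under SETD2 FL and at 63.6 and 65.4 TPM under SETD2 C. The 3 groups did not overlap, and each lay in a narrow range. BAG3, a release factor of HSP70 that also links it to autophagy, lies at chr10:119651380-119677819 on the plus strand. It stood at 16.8 and 15.8 TPM in KO, at 19.7 and 21.7 TPM under SETD2 FL and at 22.5 and 21.8 TPM under SETD2 C. BAG3 was lowest in KO, and after scaling its SETD2 FL range, 20.6 to 21.8, overlapped that of SETD2 C, 20.4 to 21.2.

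HSP90AA1, the inducible cytosolic HSP90, lies at chr14:102080742-102139699 on the minus strand, and with HSPA8 and HSPA1B it was among the most abundant of the 10 genes. It stood at 816 and 785 TPM in the libraries labelled KO of the second table, at 917 and 992 TPM under SETD2 FL and at 1048 and 1128 TPM under SETD2 C. KO was the lowest group, and after scaling the SETD2 FL and SETD2 C ranges overlapped. HSPB1, a small heat shock protein of many tissues, lies at chr7:76302673-76304295 on the plus strand. It stood at 82.6 and 82.7 TPM in KO, at 77.6 and 80.5 TPM under SETD2 FL and at 84.3 and 82.0 TPM under SETD2 C. HSPB1 varied less between the 3 groups than any inducible HSP70 gene above. HSF1, the factor that binds heat shock elements, was at 54.5 and 55.1 TPM in KO, 50.6 and 52.8 TPM under SETD2 FL and 52.7 and 53.2 TPM under SETD2 C, a narrow range with KO at its upper end.

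**Figure D2:**
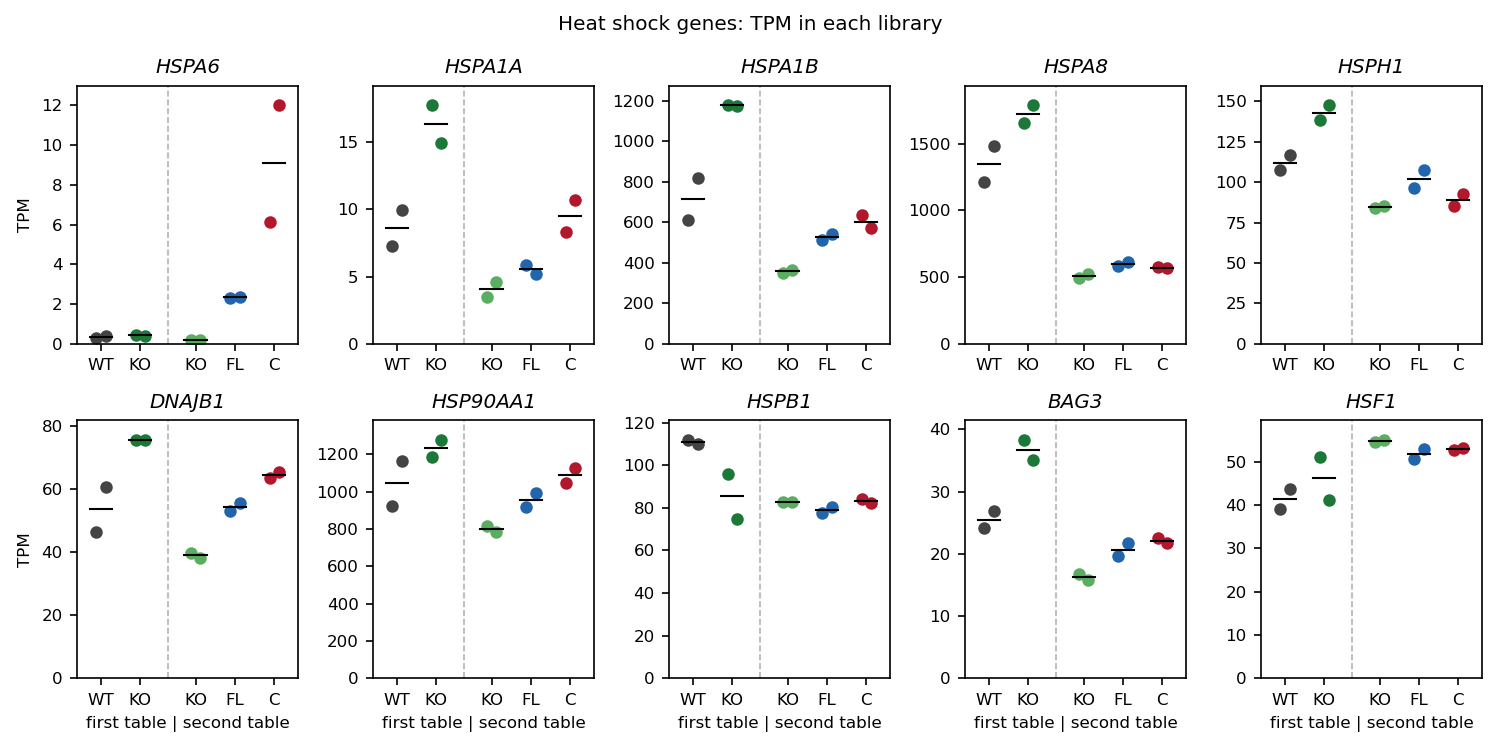
TPM of the 10 heat shock genes in each library, with WT and KO of the first table left of the dashed line and KO, SETD2 FL and SETD2 C of the second table right of it. Points are libraries and bars the mean of the 2 libraries, and each panel has its own axis from 0, HSPA6 reaching 12.01 TPM and HSPA8 1790.2 TPM.

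HSPA6 was left out of the counts of calls below, since it was selected on these differences. For SETD2 FL relative to KO, 2 of the other 9 genes were called higher, HSPA1B and DNAJB1, and none lower, beside 0.176% of the 15929 tested genes called higher and 0.0314% called lower. Over all genes, 28 higher and 5 lower became 3 and 0 when genes of any TPM above 0 were tested. With all gene types they were 6 and 1, and fewer genes were called higher with any 1 library left out. At an unadjusted p under 0.05 in limma, 7 of the 9 passed, against 2536 of all tested genes. The gene list was drawn with this comparison in view, so nothing is read from these counts. The log2 difference was 0.54 ± 0.0642 for HSPA1B, 0.46 ± 0.0532 for DNAJB1 and 0.39 ± 0.161 for HSPA1A. The HSPA1A value depended on single libraries, from 0.21 without KO replicate 2 to 0.57 without KO replicate 4. The difference was 0.31 ± 0.069 for BAG3, 0.24 ± 0.0607 for HSPH1, 0.23 ± 0.0549 for HSP90AA1 and 0.21 ± 0.0528 for HSPA8. HSPB1 and HSF1 stood slightly below KO, at -0.08 ± 0.0499 and -0.10 ± 0.0515. The median over the 10 genes was 0.28, and 0.24 without HSPA6, beside 0.01 over all tested genes. Neither call held when any of KO replicate 2, KO replicate 4, SETD2 FL replicate 3 or SETD2 FL replicate 4 was left out, with HSPA1B then between 0.51 and 0.57 and DNAJB1 between 0.43 and 0.48. The DNAJB1 call also ended, at 0.46, without SETD2 C replicate 1 or SETD2 C replicate 2. The calls of HSPA1B (0.54) and DNAJB1 (0.46) ended too with all gene types or without limma's variance trend. Testing genes of any TPM above 0 ended both as well, and fitting only the 4 libraries compared ended that of DNAJB1.

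For SETD2 C relative to KO, 5 of the 9 genes beside HSPA6 were called higher, HSPA1A, HSPA1B, HSP90AA1, DNAJB1 and BAG3, and 21.1% of all tested genes. HSF1 was called lower, 1 of the 9, beside 15.1% of all tested genes. Nothing is read from these counts, because the list was drawn with this comparison known. The log2 difference was 0.99 ± 0.161 for HSPA1A, 0.60 ± 0.0642 for HSPA1B, 0.57 ± 0.0532 for DNAJB1, 0.29 ± 0.0549 for HSP90AA1 and 0.29 ± 0.069 for BAG3. HSPA8 lay close to KO, at 0.02 ± 0.0528, and was at -0.03 without KO replicate 2, but without scaling it was at 0.17 and called higher. HSF1 was at -0.20 ± 0.0515, and its call ended without scaling (-0.05), with quantile normalisation (-0.15), with TPM rescaled after removal of mitochondrially encoded genes and SETD2 (-0.10) and without the variance trend of limma. It also ended without KO replicate 2 (-0.21), KO replicate 4 (-0.18), SETD2 C replicate 1 (-0.19) or SETD2 C replicate 2 (-0.20). The BAG3 call ended without KO replicate 4 (0.25) or SETD2 C replicate 1 (0.26). HSP90AA1 was at 0.44 without scaling. HSPH1 was at -0.08 ± 0.0607 but at 0.07 without scaling. HSPB1 was at -0.14 ± 0.0499 but at 0.01 without scaling, and it was called lower when genes of any TPM above 0 were tested. Without scaling the median over all tested genes was 0.18 in place of 0.05, and with TPM rescaled after removal of mitochondrially encoded genes and SETD2 it was 0.13. Over the 9 genes the split moved from 5 higher and 1 lower to 6 higher and none lower without scaling. Calls over all genes moved from 3357 higher and 2404 lower to 5507 higher and 1115 lower without scaling, to 2492 higher and 2751 lower with quantile normalisation and to 1733 higher and 1330 lower without SETD2 C replicate 2. The median over the 10 genes was 0.29 with HSPA6 and without it.

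SETD2 C and SETD2 FL were both transfected, so this comparison is the only pair in the second table in which both groups received a plasmid. For SETD2 C relative to SETD2 FL, 1 of the 9 genes beside HSPA6 was called higher, HSPA1A, and 21.4% of all tested genes, and 2 of the 9 lower, HSPA8 and HSPH1, beside 16.8% of all. With HSPA1A and HSPA1B summed to 1 row, 0 were called higher and 2 lower, so the higher call rested on the uncertain split of that pair. Nothing is read from these counts. The log2 difference was 0.60 ± 0.161 for HSPA1A, -0.19 ± 0.0528 for HSPA8 and -0.32 ± 0.0607 for HSPH1. Without scaling the HSPA8 and HSPH1 calls ended, at -0.06 and -0.20, and the split over the 9 genes moved from 1 higher and 2 lower to 3 higher and none lower. Calls over all genes moved from 3408 higher and 2675 lower to 5189 higher and 1508 lower without scaling. With quantile normalisation they were 2703 higher and 3037 lower. Both counts fell with any 1 library left out, most without SETD2 C replicate 2. HSPA1B at 0.06 ± 0.0642, which turned to -0.03 without SETD2 C replicate 1, HSP90AA1 at 0.06 ± 0.0549 and DNAJB1 at 0.12 ± 0.0532 were not called. Without scaling HSP90AA1 was at 0.19 and DNAJB1 at 0.25, and both were called higher. BAG3 was at -0.03 ± 0.069 but at 0.10 without scaling and at 0.01 without SETD2 FL replicate 4, HSPB1 at -0.05 ± 0.0499 but at 0.07, and HSF1 at -0.09 ± 0.0515 but at 0.04. The median over the 10 genes was 0.01, and -0.03 without HSPA6, beside 0.04 over all tested genes and 0.16 over all without scaling. The 3 comparisons of the second table share libraries, KO in the first pair and SETD2 C or SETD2 FL in the others, so their values are not independent of each other. The HSPA1A call ended without SETD2 FL replicate 4 (0.49) or SETD2 C replicate 2 (0.43). The HSPA8 call ended without any of the 4 libraries compared, from -0.21 without SETD2 C replicate 1 to -0.18 without SETD2 C replicate 2.

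**Figure D3:**
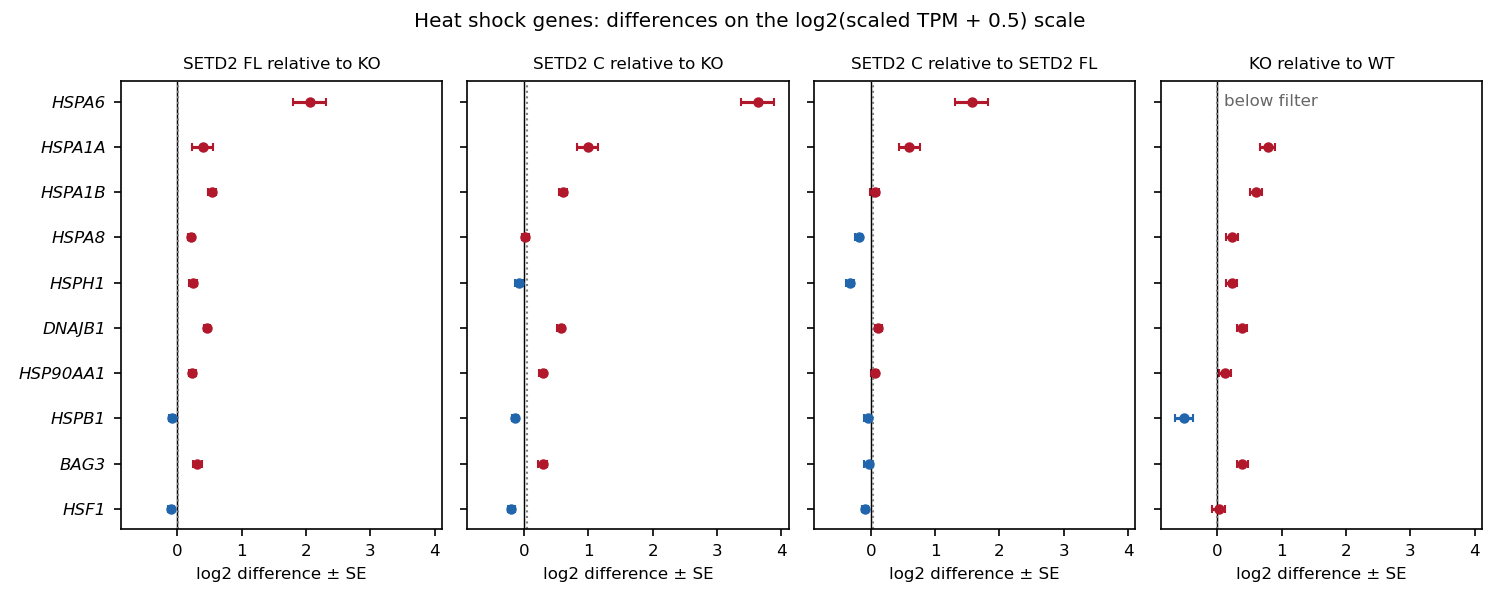
Differences of the 10 heat shock genes in 4 comparisons, on the log2(scaled TPM + 0.5) scale, with points for the estimate and bars for its SE, red above 0 and blue below it. The dotted line marks the median over all tested genes, and HSPA6 was below the filter in KO relative to WT.

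The first table compared untreated cells of both genotypes, and its values were not used to choose HSPA6. HSPA1B TPM was 612 and 818 in WT and 1179 and 1177 in the libraries labelled KO, and HSPA1A TPM was 7.24 and 9.93 in WT and 17.8 and 15.0 in KO. Both inducible genes were higher in both KO libraries than in either WT library. DNAJB1 was at 46.3 and 60.7 TPM in WT and 75.5 and 75.6 TPM in KO, and BAG3 at 24.2 and 26.9 TPM in WT and 38.4 and 35.2 TPM in KO. These 4 genes, the inducible HSP70 pair with a J-domain partner and a release factor, did not overlap between the genotypes. This was not particular to them, since HSPA6, HSPA8, HSPH1 and HSP90AA1 were also higher in KO without overlap. HSPB1 was lower without overlap, and only HSF1 overlapped. The share of all genes without overlap was not computed, so nothing is read from it.

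Each of these 4 passed the test. HSPA1A was higher in the libraries labelled KO by 0.78 (SE 0.115, limma adjusted p = 0.0196) and HSPA1B by 0.60 (SE 0.0949, limma adjusted p = 0.024), each in 2 of 2 KO libraries. BAG3 was higher by 0.39 (SE 0.0791, limma adjusted p = 0.0472) and DNAJB1 by 0.38 (SE 0.078, limma adjusted p = 0.0495), again in 2 of 2. So 4 of the 9 genes tested were called higher, beside 1.32% of the 14741 tested genes, and none lower, beside 3.17%. The list was chosen with earlier results of these data known, and the share is a description. The median over the 9 genes was 0.23 beside -0.01 over all tested genes. The sizes were below a doubling, and the calls of BAG3 and DNAJB1 lay close to the threshold.

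The HSPA1A call held in 11 of 14 alternative settings, that of HSPA1B in 11 of 15, that of BAG3 in 7 of 15 and that of DNAJB1 in 6 of 15, with adjusted p up to 0.108, 0.191, 0.192 and 0.243. Of the 4 calls, 2 were left without WT replicate 1, none without KO replicate 1 and 1, HSPA1A, without KO replicate 2, and the BAG3 call also ended without WT replicate 2. None was left when genes of any TPM above 0 were tested or when limma's variance trend was dropped. The calls of HSPA1A and HSPA1B are not independent, and with the pair summed to 1 row 3 calls were counted in place of 4. Mitochondrially encoded transcripts were highest in the WT libraries, and when TPM were rescaled without them and without SETD2, 3 of the 4 calls held. The DNAJB1 call ended there, though its difference, 0.40, was about as large as the 0.38 given above. Calls over all genes, 194 higher and 467 lower, ranged with a library left out from 31 higher and 125 lower without KO replicate 2 to 473 higher and 767 lower without WT replicate 2. Without scaling the median over all tested genes was 0.11 in place of -0.01.

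The other tested genes of the list did not pass. HSPA8 was at 1211 and 1486 TPM in WT and 1655 and 1790.2 TPM in the libraries labelled KO, a log2 difference of 0.23 (SE 0.0984, limma adjusted p = 0.209). HSPH1 was at 107 and 117 TPM in WT and 138 and 148 TPM in KO, a difference of 0.22 (SE 0.0809, limma adjusted p = 0.157). Both were higher in 2 of 2 KO libraries, without passing the threshold, and without scaling they were at 0.36 and 0.35. HSP90AA1 was at 925 and 1162 TPM in WT and 1183 and 1278 TPM in KO, a difference of 0.12 (SE 0.0955, limma adjusted p = 0.487) that ranged from 0.05 without KO replicate 2 to 0.25 without scaling. HSPB1 went the other way, at 112 and 109.8 TPM in WT and 96.04 and 74.66 TPM in KO, a difference of -0.52 (SE 0.135, limma adjusted p = 0.0822) with both KO libraries below WT. The HSPB1 difference passed the threshold in 2 of 15 alternatives, at -0.52 with the replicate block (limma adjusted p = 0.0116) and at -0.65 without WT replicate 2 (limma adjusted p = 0.0353). HSF1 was at 39.0 and 43.6 TPM in WT and 51.1 and 41.2 TPM in KO, overlapping, with a difference of 0.02 (SE 0.105, limma adjusted p = 0.921). The HSF1 difference turned to -0.02 without WT replicate 2 and to -0.12 without KO replicate 1.

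The libraries labelled KO in the first table stood above those in the second for several genes. Mean TPM was 1723 and 509 for HSPA8, 1178 and 359 for HSPA1B, and 36.8 and 16.3 for BAG3. The tables came from separate batches, so these gaps cannot be told apart from the batch and no test was run across them. The SETD2 FL and SETD2 C means of HSPA1B, 530 and 604 TPM, lay below the WT mean of the first table, 715 TPM, by the same untested reading. HSPA8, HSPH1, HSPB1 and BAG3 also lay below WT in both groups, while HSPA6, DNAJB1 and HSF1 lay above it. HSPA1A and HSP90AA1 lay below WT with SETD2 FL and above it with SETD2 C.

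The network around these genes was described with 78 other genes in 10 roles, and the filter kept 71 of them for the second table and 69 for the first. For SETD2 FL relative to KO, 1 of the 71 was called higher, DNAJA1, and none lower, beside 0.176% and 0.0314% of all tested genes. DNAJA1, a J-domain partner of HSPA8, was at 75.1 and 69.3 TPM in the libraries labelled KO, 98.2 and 107 TPM under SETD2 FL and 102 and 97.0 TPM under SETD2 C. It rose by 0.48 (SE 0.0595, limma adjusted p = 0.037) in 2 of 2 SETD2 FL libraries. The call held in 7 of 17 alternatives, with adjusted p up to 0.188, and was lost without any 1 of the 6 libraries of the table. At an unadjusted p under 0.05 in limma, 20 of the 71 passed, against 2536 of 15929 tested genes. The median over the 71 was 0.05 beside 0.01 over all tested genes. All 9 chaperones of the endoplasmic reticulum had a positive difference, as did 8193 of all tested genes, and none was called.

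For SETD2 C relative to KO, 17 of the 71 network genes (23.9%) were called higher and 14 lower, beside 21.1% and 15.1% of all tested genes, though the 17 include CRYAB and HSPB3, which the filter passed only through SETD2 C. The median was -0.03 beside 0.05 over all tested genes. Without scaling the split was 28 higher and 4 lower, so the balance of directions rested on the scaling. Fewer network genes were called without KO replicate 4, SETD2 C replicate 1 or SETD2 C replicate 2. Of the small heat shock proteins other than HSPB1, 3 of 3 tested were called higher. HSPB8, which works with BAG3 in the clearance of misfolded proteins, was at 1.71 and 1.86 TPM in the libraries labelled KO, 2.65 and 2.81 TPM under SETD2 FL and 12.19 and 12.01 TPM under SETD2 C. It rose by 2.33 relative to KO (SE 0.101, limma adjusted p = 9.29e-06) and by 1.85 relative to SETD2 FL (SE 0.101, limma adjusted p = 2.61e-05), in 2 of 2 SETD2 C libraries. CRYAB, the lens and muscle small heat shock protein, was at 0.44 and 0.27 TPM in KO, 0.26 and 0.28 TPM under SETD2 FL and 1.77 and 2.95 TPM under SETD2 C. CRYAB and HSPB3 thus had to be higher there, and the counts of 17 and 3 are descriptions. The promoter of HSPB8 printed above held a motif 88 bases before its start.

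Among heat-inducible genes outside the chaperone families, 5 of 9 were called higher with SETD2 C relative to KO and none lower, beside 21.1% and 15.1% of all tested genes. CLU, a secreted chaperone, was at 27.1 and 40.0 TPM in the libraries labelled KO, 37.4 and 40.4 TPM under SETD2 FL and 138 and 127 TPM under SETD2 C. It rose by 1.84 (SE 0.156, limma adjusted p = 0.000237) in 2 of 2 SETD2 C libraries. IER5, a cofactor of HSF1, was at 17.3 and 16.5 TPM in KO and 30.6 and 32.95 TPM with SETD2 C, and rose by 0.74 (SE 0.0696, limma adjusted p = 0.000367). RGS2, a regulator of G protein signalling, rose by 0.69 (SE 0.0748, limma adjusted p = 0.000654). Of the J-domain cochaperones, 4 of 7 were called higher and 1 lower, with DNAJB4 up by 0.83 (SE 0.0631, limma adjusted p = 0.000144). HSPA2, an HSP70 best known from the testis, rose by 0.88 (SE 0.124, limma adjusted p = 0.00178). All 5 of these genes were higher in 2 of 2 SETD2 C libraries, and each call held in all 17 alternatives.

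Of the 9 chaperones of the endoplasmic reticulum, 3 were called higher and 2 lower with SETD2 C relative to KO, beside 21.1% and 15.1% of all tested genes. HSPA5, the HSP70 of that compartment, rose by 0.66 (SE 0.107, limma adjusted p = 0.00308), and HYOU1, its HSP110 partner, fell by 0.36 (SE 0.0896, limma adjusted p = 0.0163), each in 2 of 2 SETD2 C libraries. SDF2L1 fell by 0.35 (SE 0.0781, limma adjusted p = 0.0112), and the calls of HYOU1 and SDF2L1 ended without scaling, at -0.22 and -0.20. HYOU1 also lost its call without KO replicate 4 (-0.30) or SETD2 C replicate 1 (-0.33), and SDF2L1 without KO replicate 4 (-0.29) or SETD2 C replicate 2 (-0.29). Of the 8 mitochondrial chaperones and proteases, the median difference was -0.16, and 4 were called lower, beside 15.1% of all tested genes, with TRAP1, a mitochondrial HSP90, at -0.55 (SE 0.0583, limma adjusted p = 0.000571) and DNAJA3 at -0.40 (SE 0.0585, limma adjusted p = 0.00207), or -0.25 without scaling. CLPP, a mitochondrial protease, was at -0.33 (SE 0.0633, limma adjusted p = 0.00647) and its call ended without scaling, at -0.18. The remaining lower call, HSPE1 at -0.18 with scaling, also ended without it. The share of mitochondrially encoded transcripts was lowest in the same SETD2 C libraries, and its part in these values was not tested.

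Among other cochaperones 1 of 17 was called higher with SETD2 C relative to KO and 2 lower, beside the same 21.1% and 15.1% of all tested genes that hold for each role here. The lower genes were HSPBP1 at -0.47 (SE 0.0774, limma adjusted p = 0.00333) and STUB1, a ubiquitin ligase of HSP70 clients, at -0.27 (SE 0.0546, limma adjusted p = 0.00707). The STUB1 call ended without scaling, at -0.13. Of the 6 other cytosolic HSP70 and HSP110 genes, 1 was called higher, HSPA2, and 2 lower, led by HSPA14 at -0.45 (SE 0.0588, limma adjusted p = 0.00137), or -0.30 without scaling. HSP90AB1, the constitutive cytosolic HSP90, was called lower, 2 of 8 subunits of the chaperonin TRiC were called lower and none higher, and of HSF2, HSF4 and HSBP1, a binding protein of heat shock factors, none was called, with 0 at an unadjusted p under 0.05 in limma. The HSP90AB1 and TRiC calls ended without scaling, as did the lower calls of HSPA4 and of DNAJC7, a J-domain cochaperone.

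For SETD2 C relative to SETD2 FL, 13 of the 71 (18.3%), CRYAB and HSPB3 among them, were called higher and 20 lower, beside 21.4% and 16.8% of all tested genes, with a median of -0.07, and without scaling the split was 24 higher and 8 lower. CLU rose by 1.63 (SE 0.156, limma adjusted p = 0.000353), while CRYAB and HSPB3, which passed the filter only through SETD2 C, are given by their levels alone. HSPB3 was at 0.43 and 0.40 TPM in the libraries labelled KO, 0.27 and 0.48 TPM under SETD2 FL and 0.91 and 1.11 TPM under SETD2 C. RGS2 rose by 0.91 (SE 0.0748, limma adjusted p = 0.000181), IER5 by 0.77 (SE 0.0696, limma adjusted p = 0.000286) and HSPA2 by 0.65 (SE 0.124, limma adjusted p = 0.00534). At the lower end were the ER genes HYOU1 at -0.56, SDF2L1 at -0.54 and DNAJB11 at -0.43, the mitochondrial TRAP1 at -0.55 and DNAJA3 at -0.33, and the cytosolic HSPA14 at -0.55, HSPBP1 at -0.44 and CHORDC1 at -0.41, all with limma adjusted p between 0.000501 and 0.00605. Each gene named here moved the same way in 2 of 2 SETD2 C libraries.

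For KO relative to WT, 2 of the 69 tested were called higher and 3 lower, beside 1.32% and 3.17% of all tested genes, with a median of 0.03. Without scaling the split was 2 higher and none lower, and over all genes it moved from 194 higher and 467 lower to 410 higher and 359 lower. HSPA2 was at 2.65 and 3.58 TPM in WT and 6.31 and 7.16 TPM in the libraries labelled KO, and rose by 0.90 (SE 0.125, limma adjusted p = 0.0167). CHORDC1, an HSP90 cochaperone, was at 110.5 and 133 TPM in WT and 171 and 188 TPM in KO, and rose by 0.43 (SE 0.0801, limma adjusted p = 0.0385). DNAJB2, a J-domain cochaperone of neurons, was at -0.45 (SE 0.081, limma adjusted p = 0.0343), SERPINH1, the collagen chaperone, at -0.43 (SE 0.0742, limma adjusted p = 0.0308) and STUB1 at -0.37 (SE 0.068, limma adjusted p = 0.0369). These 3 calls ended without scaling, at -0.33, -0.30 and -0.24. Each moved the same way in 2 of 2 KO libraries. The HSPA2 call held in 13 of 15 alternatives and the other 4 in 8 or 9 of 15, with adjusted p up to 0.401 for STUB1. Without KO replicate 2 none of the 5 calls was left, and without WT replicate 1 or without KO replicate 1 a lone call was left.

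**Figure D4:**
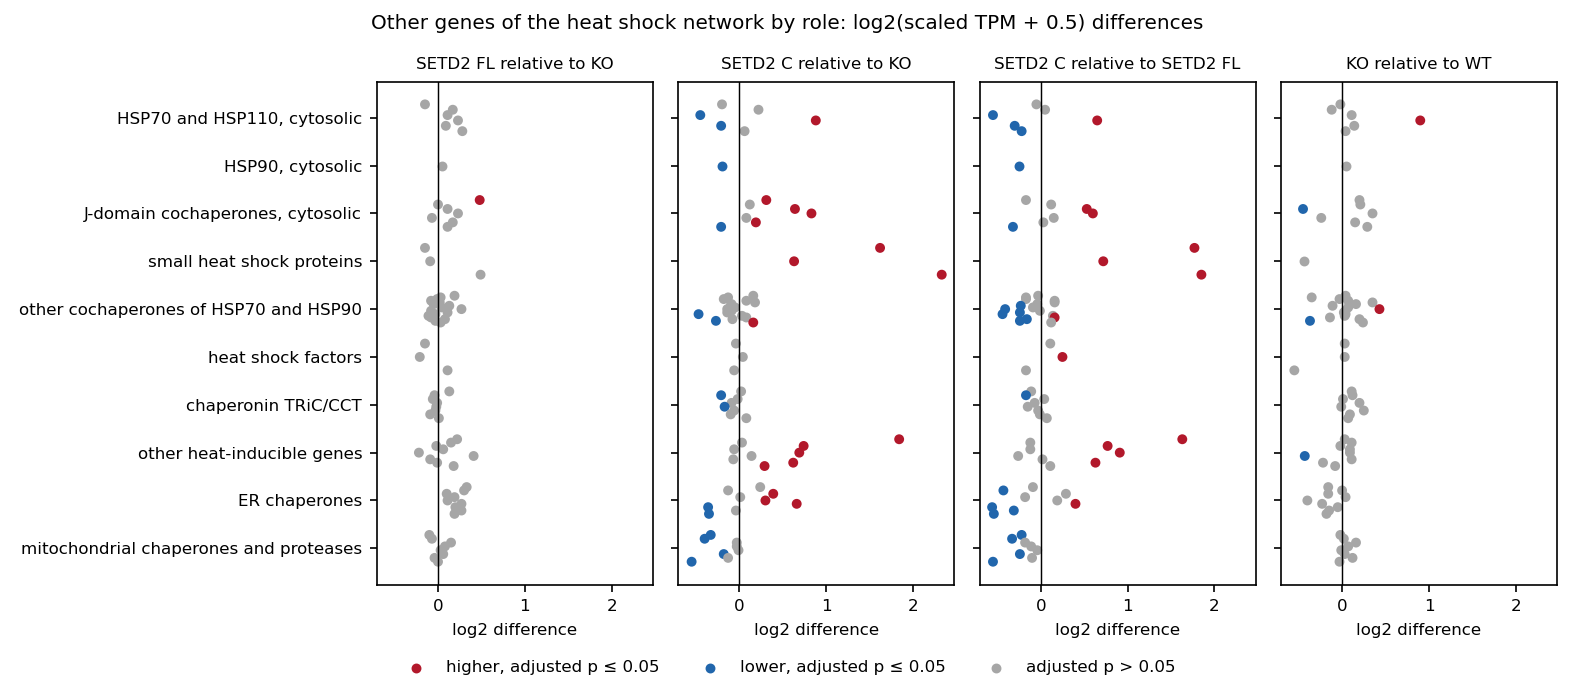
Differences of the tested other genes of the heat shock network by role, on the log2(scaled TPM + 0.5) scale, in 4 comparisons. Each point is a gene, red where called higher, blue where called lower and grey where not called, at an adjusted p of 0.05 from limma.

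Among genes outside the network, the 5 whose profile lay nearest to that of HSPA6 over the 6 libraries of the second table were SPARC, LINC01411, AMBN, AC132217.1 and FOS. The measure was the root mean square difference of log2 values after each gene was centred on its own mean, and it was 0.546, 0.573, 0.706, 0.706 and 0.748. SPARC, a matrix glycoprotein, was at 0.69 and 0.92 TPM in the libraries labelled KO, 2.61 and 2.20 TPM under SETD2 FL and 7.87 and 7.87 TPM under SETD2 C. LINC01411, a long noncoding RNA, was at 0.44 and 0.45 TPM, 1.72 and 1.19 TPM, and 5.72 and 5.56 TPM in the same order. FOS, an immediate early transcription factor, was at 1.82 and 1.69 TPM, 2.38 and 2.43 TPM, and 14.1 and 14.6 TPM. In KO all 5 stood above HSPA6, so the likeness is of shape and not of level, and all 5 were chosen by these values.

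**Figure D5:**
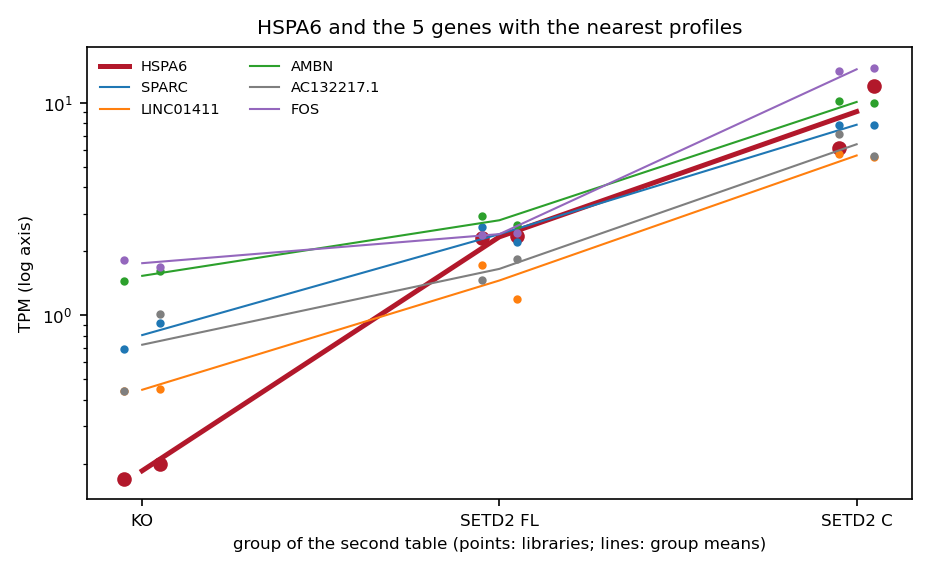
TPM, on a log axis, of HSPA6 and of the 5 genes with the nearest profiles in the KO, SETD2 FL and SETD2 C libraries of the second table. Points are libraries and lines join the group means, and HSPA6 was the lowest of the 6 genes in KO.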

How the data were processed

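RNA of 10 HEK293T libraries was analysed from TPM values that the authors deposited as a table for each batch. Per the submitters' processing notes and the study's methods, reads were demultiplexed with bcl2fastq 2.18, aligned to hg38 with STAR 2.6.1c on Ensembl 96 gene models and quantified with RSEM 1.3.0. TPM of the tables were not normalised between libraries. Libraries were grouped by their titles.

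TPM were divided by a median-ratio factor within each table, from 0.879 to 1.07, and log2(TPM + 0.5) was fitted by lmFit, contrasts.fit and trended eBayes of limma 3.58.1, run under R 4.3.3, for protein-coding and lncRNA genes that reached a TPM of 0.5 in 2 or more libraries. P-values were adjusted by Benjamini-Hochberg over all 14741 tested genes of the first table or 15929 of the second. The fit was also run on simulated log-normal TPM with libraries drawn independently. That run cannot show how the calls fare if replicates are technical, and nothing here rests on it. Gene types and positions came from GENCODE on GRCh38, matched by ID for 58472 genes and by symbol for 18, with 394 unmatched. Promoter sequences came from RefSeq.

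The members, the network list and the markers were chosen with earlier results of these data known. All members are named. Other network genes were named by rule, at most 8 with the largest rise and 8 with the largest fall among those called in a comparison. The 5 genes nearest to HSPA6 were found by distance between profiles. Genes singled out for motifs were chosen after their values were seen. Alternatives were other pseudocounts, filters, scalings, variance models and gene types, the sum of HSPA1A and HSPA1B, fewer libraries in the fit, the replicate block, and each library left out.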

Additional observations from a re-analysis of the deposited data

How the results depend on the processing

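No called difference of a member, or of a network gene named by the rule, changed direction under any alternative run. Direction was not followed for the other called network genes. Uncalled differences of HSPA8, HSPH1 and HSPB1 for SETD2 C relative to KO, of HSPA1B, HSPB1, BAG3 and HSF1 for SETD2 C relative to SETD2 FL, and of HSF1 for KO relative to WT did so, as the report gives. The cause of the moves below was not tested unless the setting itself shows it. With a pseudocount of 0.1 the HSPA6 log2 difference was 3.09 for SETD2 FL relative to KO, 4.81 for SETD2 C relative to KO and 0.19 for KO relative to WT, and with a pseudocount of 1 the first of these was 1.51 and the second 2.93. For KO relative to WT HSPA6, at 0.10, was at 0.16 without scaling and at 0.17 with quantile normalisation. With a filter of TPM of at least 1 in every library HSPA6 got no value.

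With no filter beyond a TPM above 0, which tested more genes, 0 of the 9 genes other than HSPA6 were called for SETD2 FL relative to KO (2 in the report), 7 for SETD2 C relative to KO (6), 1 for SETD2 C relative to SETD2 FL (3) and 0 for KO relative to WT (4). Of the other network genes 0 were called for SETD2 FL relative to KO (1) and 0 for KO relative to WT (5). Without the variance trend of limma the 9 genes had 0 calls for SETD2 FL relative to KO and 0 for KO relative to WT, and the network genes 0 for SETD2 FL relative to KO, 20 for SETD2 C relative to KO (31) and 1 for KO relative to WT. With all gene types the 9 genes had 0 calls for SETD2 FL relative to KO and 2 for KO relative to WT, and the network genes 0 and 2. With quantile normalisation 2 of the 9 members tested were called for KO relative to WT, without scaling 2 network genes, and with only the 4 libraries compared 0 network genes for SETD2 FL relative to KO. With HSPA1A and HSPA1B summed to 1 row, members other than HSPA6 had 2 calls for SETD2 FL relative to KO and 5 for SETD2 C relative to KO. They had 2 for SETD2 C relative to SETD2 FL and 3 for KO relative to WT.

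WT and KO share replicate numbers, and deviations of same-numbered libraries correlated at r = 0.147 over 14741 genes. With only 2 pairs this value cannot show whether the libraries share more than a number. With the replicate block 5 of the 9 members tested were called, 4 higher and HSPB1 lower at -0.52, and 8 network genes, and HSPA6 was at 0.10. The block moved the calls over all genes from 194 higher and 467 lower to 439 higher and 825 lower. No paired analysis was possible because the groups of the second table share fewer than 2 replicate numbers.

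With each library left out in turn, a lone library being assumed to vary like the others, HSPA6 ranged from 2.03 to 2.11 for SETD2 FL relative to KO, from 3.17 to 4.07 for SETD2 C relative to KO, from 1.11 to 2.02 for SETD2 C relative to SETD2 FL and from 0.06 to 0.14 for KO relative to WT. Calls among the 9 genes other than HSPA6 ranged from 0 to 1, from 4 to 6, from 1 to 3 and from 0 to 4 in the same order. Calls among the network genes stayed at 0 and ranged from 19 to 31, from 22 to 33 and from 0 to 8, with 20 or fewer for SETD2 C relative to KO without KO replicate 4, SETD2 C replicate 1 or SETD2 C replicate 2. Of the named network genes' alternatives, 259 of 269 kept their side of the threshold for SETD2 C relative to KO, 264 of 266 for SETD2 C relative to SETD2 FL, 47 of 75 for KO relative to WT and 7 of 17 for SETD2 FL relative to KO, and none changed direction. For the 9 members tested 108 of 134 did so for KO relative to WT, where 24 lost a call and 2 gained one. Depth was unknown, so its limit on low genes such as HSPA6 cannot be given.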
